A study of Mus musculus with 8 samples.

Results

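The regions described here are the 28 ATAC-seq peaks, of 74207 in the deposited table, that fall in windows around Cd44 and Sdc4, genes of cell-surface proteins, on mouse chromosome 2 (build mm9). Membership was set by position alone: 15 peaks overlap 102640000 to 102760000, around Cd44, and 13 overlap 164235000 to 164290000, around Sdc4. The pair of loci was itself chosen by results of these data, taken here to be the accessibility change between LPS and unstimulated libraries, so that change is given as a description with no test. ATAC-seq measures how readily the Tn5 transposase inserts adapters into chromatin, and a peak is a region with many insertions. Macrophages had been grown from the bone marrow of 2 C57Bl/6 mice, both wild type, and each animal contributed 1 of the 2 libraries of every group, 8 in all. The groups were fenoterol + LPS (fenoterol at 1 µM for 15 min, and after it LPS at 100 ng/mL for 1 h), LPS (100 ng/mL for 1 h), fenoterol (1 µM for 15 min) and unstimulated cells. Fenoterol activates the β2 adrenergic receptor, and LPS is the bacterial lipopolysaccharide sensed by Toll-like receptor 4. Time since fenoterol therefore differed between the groups that received it. Gene expression was not measured in these libraries, so the labelled cell type was not checked here against marker genes.

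CD44 is a transmembrane receptor for the matrix polysaccharide hyaluronan and serves leukocytes in adhesion and migration. SDC4 (syndecan-4) is a transmembrane proteoglycan whose heparan sulfate chains bind matrix proteins and growth factors, and it works with integrins at focal adhesions. In macrophages, LPS acts through NF-κB and AP-1 transcription factors on promoters and on distal enhancers, many of which become more accessible as the cell is activated.

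Both genes lie on the minus strand, so the 5′ end of each has the higher coordinate and the 3′ end the lower. The 250 bases before each annotated start site are shown because accessible peaks lie at or near both 5′ ends. They are from RefSeq on GRCm38.p6, a build other than that of the peaks, at chr2:102901666-102901915 (Cd44) and chr2:164443189-164443438 (Sdc4), both minus strand and written 5′ to 3′. Capitals mark matches on either strand to the motifs searched: the NF-κB consensus, AP-1 (TGANTCA), the cAMP response element (TGACGTCA) and its half-site (TGACG), the GC box (GGGCGG) and the core of the PU.1 motif (GAGGAA).
Cd44: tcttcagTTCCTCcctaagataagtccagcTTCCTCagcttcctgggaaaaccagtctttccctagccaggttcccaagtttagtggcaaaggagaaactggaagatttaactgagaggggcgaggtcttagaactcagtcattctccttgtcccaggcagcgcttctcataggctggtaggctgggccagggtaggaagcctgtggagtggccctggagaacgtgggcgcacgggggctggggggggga
Sdc4: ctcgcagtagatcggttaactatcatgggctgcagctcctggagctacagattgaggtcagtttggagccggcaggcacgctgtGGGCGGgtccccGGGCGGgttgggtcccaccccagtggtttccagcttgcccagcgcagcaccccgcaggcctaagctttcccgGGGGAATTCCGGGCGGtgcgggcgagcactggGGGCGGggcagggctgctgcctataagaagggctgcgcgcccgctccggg

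The Sdc4 window holds 1 match to the NF-κB consensus, the motif of the main LPS-activated factor, beginning at position -82 (position -1 is the last base before the start site), and a GC box follows it directly. Such a match occurs in 7.25% of 32851 promoter windows of this length. Sdc4 has 4 GC boxes in all, found in 32.7% of windows at least once, and Cd44 has none in these bases. Cd44 instead has 2 matches to the PU.1 core on the opposite strand, beginning at -243 and -220. PU.1 is a lineage factor of myeloid cells, and its core occurs in 23.3% of windows. Neither window held AP-1 (6.75% of windows), the cAMP response element (1.55%) or its half-site (17.8%), which lies within the full element. A match is a description of the letters, not evidence of binding. The sequences of the distal peaks were not analysed here, since no genome of build mm9 was used.

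Depth was lowest in 1 library, unstimulated cells of mouse 1, with 1426873 reads in peaks. The other 7 had 3164446 to 4040292. In that library the member peaks held 1 to 74 reads with a median of 11, and 4 Cd44 peaks stood at 1 read, the lowest value the table holds, which can also stand for no read. In the other libraries the members held 1 to 201 reads, with medians of 25 to 53. Accessibility is given below as RPKM, the authors' reads scaled to peak length in kb and to the library's reads in peaks, further scaled here by 1 factor per library (0.940 to 1.04). A shift shared by every peak is invisible in this unit. The 2 libraries of a group come from separate mice. The variance behind each p-value was pooled over all groups and moderated towards that shared over all peaks. Chi-square over its degrees of freedom, near 1 for counting error alone, was computed between the 2 mice of each group. It was 0.938 in fenoterol + LPS, 0.890 in LPS, 1.09 in fenoterol and 1.21 in unstimulated cells. The mice thus differed by little more than counting error, and the p-values say little about variation between animals.

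In the Cd44 window, 13 peaks lie within the gene's approximate span of 102651000 to 102742000, 1 lies just beyond its 3′ end and 1 about 16.1 kb upstream of the peak at its 5′ end. In the Sdc4 window, 6 peaks lie within 164250000 to 164270000, 2 at the 3′ side and 5 on the 5′ side. The next annotated gene is Rbpjl on the 3′ side and Sys1 on the 5′ side, so the peaks outside that span cannot be assigned to Sdc4. Widths had a median of 365 bp at Cd44 (202 to 1000) and 387 bp at Sdc4 (265 to 1395), against 404 bp over all peaks. Mean levels over the 8 libraries had medians of 20.9 RPKM at Cd44 and 29.9 RPKM at Sdc4, against 16.9 RPKM over all peaks.

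Macrophages with LPS had more accessible chromatin across most of both loci, with fenoterol and without it, and the highest gains were at peaks away from the 5′ ends. Summed over the 15 Cd44 peaks, the fenoterol + LPS libraries held 206 and 219 RPM, reads scaled to all reads in peaks (mouse 1 and mouse 2), the LPS libraries 209 and 197, the fenoterol libraries 130 and 140, and the unstimulated libraries 134 and 127. Summed over the 13 Sdc4 peaks the values were 288 and 274 in fenoterol + LPS, 287 and 269 in LPS, 158 and 159 in fenoterol, and 210 and 164 in unstimulated libraries. At both loci every library with LPS was above every library without it. The groups within each LPS state overlapped, except that both unstimulated sums at Sdc4 were above both fenoterol sums.

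**Figure D1:**
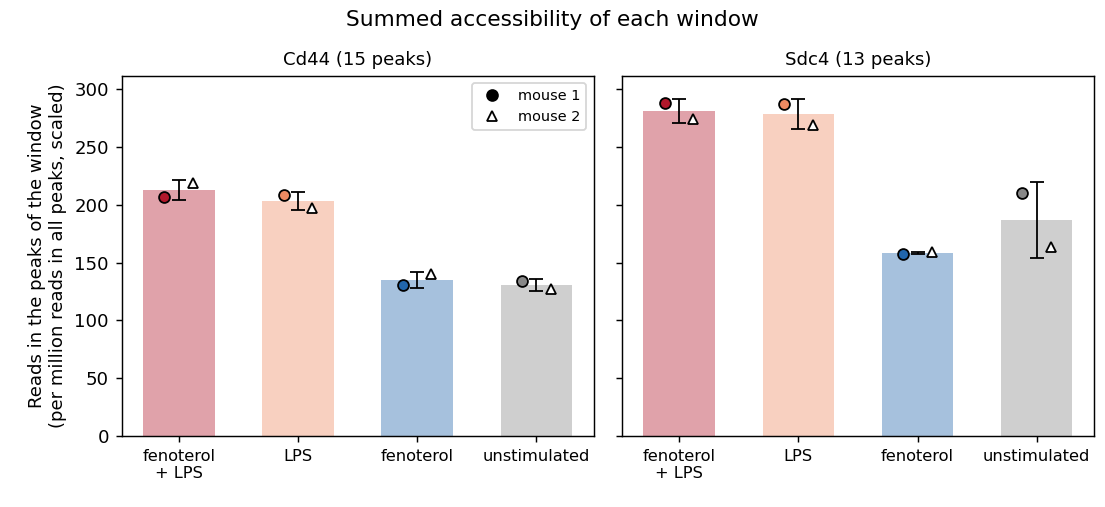
Summed accessibility of the Cd44 and Sdc4 windows in RPM relative to all reads in peaks (vertical axis), by group; bars are means of 2 mice, error bars the SD and points the libraries. The libraries with LPS lie between 197 and 219 at Cd44 and between 269 and 288 at Sdc4, above all libraries without LPS.

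Peak by peak, all 4 libraries with LPS exceeded all 4 without at 10 of the 15 Cd44 peaks and 10 of the 13 Sdc4 peaks. Among peaks that were tested, the counts were 9 of 13 at Cd44 and 9 of 12 at Sdc4. This order held at 12.3% of all tested peaks. The reverse order held at 1 peak of each locus, against 11.3% of all tested peaks. Both LPS libraries were above both unstimulated ones at 11 tested Cd44 and 9 tested Sdc4 peaks, against 23.5% of all tested peaks. They were below them at 1 tested peak of each locus, against 26.4%. Since the loci were chosen with such results known, these shares describe the members and nothing is read from them.

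The comparison of fenoterol + LPS with fenoterol shares no library with that of LPS with unstimulated cells, but it comes from the same mice. Its groups differ in time since fenoterol as well as in LPS. Whether fenoterol stayed on the cells during LPS was not determined. Below, a change "with fenoterol present" is only a name for the difference of fenoterol + LPS from fenoterol. Whether this comparison also had a part in the choice of the loci is not known, so its p-values are not support apart from that choice. It was tested peak by peak with limma-trend over 66786 peaks (Benjamini-Hochberg adjusted p at most 0.05). Of 13 tested Cd44 peaks 6 rose and 2 fell, and of 12 tested Sdc4 peaks 9 rose and 1 fell. Over all tested peaks 9.43% rose and 4.32% fell. With quantile normalization the split over all tested peaks moved to 6657 risen and 4982 fallen, against 6300 and 2882 as scaled here. The median log2 change was 0.74 at Cd44 and 0.76 at Sdc4, against -0.03 over all tested peaks. The Cd44 median was 0.40 with fenoterol of mouse 1 left out. Changes are of the scaled value plus 4 RPKM and are smaller than ratios of the levels, most at low peaks. A further 2 Cd44 peaks and 1 Sdc4 peak had too low a mean (at or under the lowest 10% of peaks) to be tested. By voom, 7 Cd44 peaks rose and 2 fell, and 10 Sdc4 peaks rose and 1 fell, against 12.1% and 7.12% of all tested peaks. The Cd44 counts rested on single libraries: with 1 of the 2 fenoterol + LPS libraries left out, that of mouse 2, 3 rose and 0 fell by limma-trend, where over all tested peaks 4.6% rose and 1.5% fell. Leaving out any other of the 4 libraries compared gave 4 or 5 risen Cd44 peaks and 1 fallen, while 7 or 8 Sdc4 peaks rose and 1 fell whichever of the 4 was left out. In those fits too fewer of all tested peaks passed, 4.51% to 7.48% risen and 1.02% to 2.30% fallen.

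The Cd44 peak with the strongest gain was an intragenic one, peak40190 at 102713471 to 102713980, about 28.0 kb from the 5′ peak. It had 58.1 and 69.0 RPKM in fenoterol + LPS libraries (mouse 1 and mouse 2), 47.2 and 56.4 RPKM in LPS, 8.63 and 14.6 RPKM in fenoterol, and 10.3 and 8.02 RPKM in unstimulated libraries. The lowest library with LPS was more than 3 times as high as the highest without. It rose in fenoterol + LPS against fenoterol by a log2 change of 2.13 (SE 0.19, 4.39-fold, adjusted p = 7.63e-07). For LPS against unstimulated cells the log2 change was 2.09 (SE 0.19). It had the highest mean of the Cd44 window in both groups with LPS and was among the lower peaks in both groups without.

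Other gains at Cd44 lay further into the gene. At peak40187 (102690141 to 102690525) the fenoterol + LPS libraries had 30.9 and 22.5 RPKM, the LPS libraries 23.6 and 21.9, the fenoterol libraries 7.35 and 8.03, and the unstimulated libraries 7.77 and 6.26. The libraries with LPS were well above those without, and the groups within each LPS state overlapped. Its log2 change with fenoterol present was 1.38 (SE 0.26, adjusted p = 0.00115), and the call was lost without the fenoterol + LPS library of mouse 1 (log2 change 1.18, adjusted p = 0.0562). At peak40184 (102668047 to 102668310) the levels were 28.8 and 26.5 RPKM in fenoterol + LPS, 23.7 and 17.5 in LPS, 4.77 and 8.79 in fenoterol, and 2.84 and 5.48 in unstimulated libraries, where the value of mouse 1 is the 1-read minimum. Here both fenoterol + LPS libraries were also above both LPS libraries. The rise with fenoterol present was 1.58 on the log2 scale (SE 0.31, adjusted p = 0.00140) and was kept under all 27 alternatives tried.

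Of the other Cd44 peaks that rose, peak40193, 6.40 kb from the 5′ peak into the gene, averaged 31.9 ± 1.01 RPKM in fenoterol + LPS, 28.4 ± 3.14 in LPS, 16.4 ± 0.252 in fenoterol and 17.0 ± 3.09 in unstimulated cells (SD, n = 2). Its log2 change with fenoterol present was 0.82 (adjusted p = 0.00447; 0.0631 with fenoterol + LPS of mouse 2 left out). At the 3′ edge, peak40182 rose by 1.38 on the log2 scale (adjusted p = 0.0163). Its level was 19.2 ± 6.69 RPKM in fenoterol + LPS and 4.69 ± 0.290 RPKM in fenoterol cells. That call was lost when fenoterol + LPS of mouse 2 (0.223) was left out, or without the fenoterol library of mouse 1 (0.102) or of mouse 2 (0.0593). The call at peak40185 was the least firm, with a log2 change of 0.95 and an adjusted p of 0.0449. It was lost in 16 of 27 alternatives, voom on recovered reads among them (0.0591), and without the fenoterol library of mouse 1 the log2 change was 0.40 (0.549). Peak40185 had 21.3 and 29.0 RPKM in fenoterol + LPS and 6.21 and 17.8 RPKM in fenoterol libraries, which differed widely between the mice.

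The peak at the 5′ end of Cd44, peak40195 (102741272 to 102742272), was the widest of the window and open in every group. It had 48.3 and 49.1 RPKM in fenoterol + LPS, 47.8 and 47.4 in LPS, 35.8 and 37.5 in fenoterol, and 42.5 and 33.9 in unstimulated libraries. The libraries with LPS were all above those without. The log2 change with fenoterol present was 0.37 (SE 0.14, adjusted p = 0.0819), short of the threshold by limma-trend and past it by voom (adjusted p = 0.0320). Peak40183 and peak40192 also did not pass, with log2 changes of 0.30 and 0.41 (adjusted p = 0.279 and 0.209). At peak40188 the log2 change was 0.74 (adjusted p = 0.0627), and it passed in 14 of 27 alternatives, with the mouse as a block (0.0471) and by voom (0.00173) among them. Peak40186, left out of the test for its low mean, had 11.7 and 10.95 RPKM in fenoterol + LPS, 22.2 and 13.5 in LPS, 2.24 and 5.50 in fenoterol, and 2.67 and 5.15 in unstimulated libraries. It was higher in every library with LPS, and in a fit with no filter its log2 change with fenoterol present was 0.99 (adjusted p = 0.0804).

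At 2 Cd44 peaks accessibility was lower with fenoterol + LPS than with fenoterol. At peak40189 (102707898 to 102708263), 5208 bp from peak40190, the fenoterol + LPS libraries had 13.2 and 6.87 RPKM, the LPS libraries 22.5 and 18.6, the fenoterol libraries 25.8 and 25.3, and the unstimulated libraries 24.5 and 30.3. The order of the groups was therefore the opposite of that at its neighbour, and the fenoterol + LPS libraries lay apart from the other 6. It fell by 1.11 on the log2 scale against fenoterol (SE 0.23, adjusted p = 0.00208; 0.0554 without the fenoterol + LPS library of mouse 2). LPS without fenoterol gave a log2 change of -0.36 (SE 0.23). At peak40194 (102739298 to 102739662), 2.29 kb from the 5′ peak, the levels were 24.3 and 27.6 RPKM in fenoterol + LPS, 30.3 and 29.8 in LPS, 38.8 and 38.8 in fenoterol, and 28.7 and 25.7 in unstimulated libraries. The fenoterol libraries here stood above the other 6. The peak fell against fenoterol by 0.52 on the log2 scale (SE 0.15, adjusted p = 0.0238). This call was lost without any 1 of the 4 libraries compared: the adjusted p was 0.198 and 0.0701 with fenoterol + LPS of mouse 1 or mouse 2 left out, and 0.134 and 0.09996 without the fenoterol library of mouse 1 and mouse 2.

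**Figure D2:**
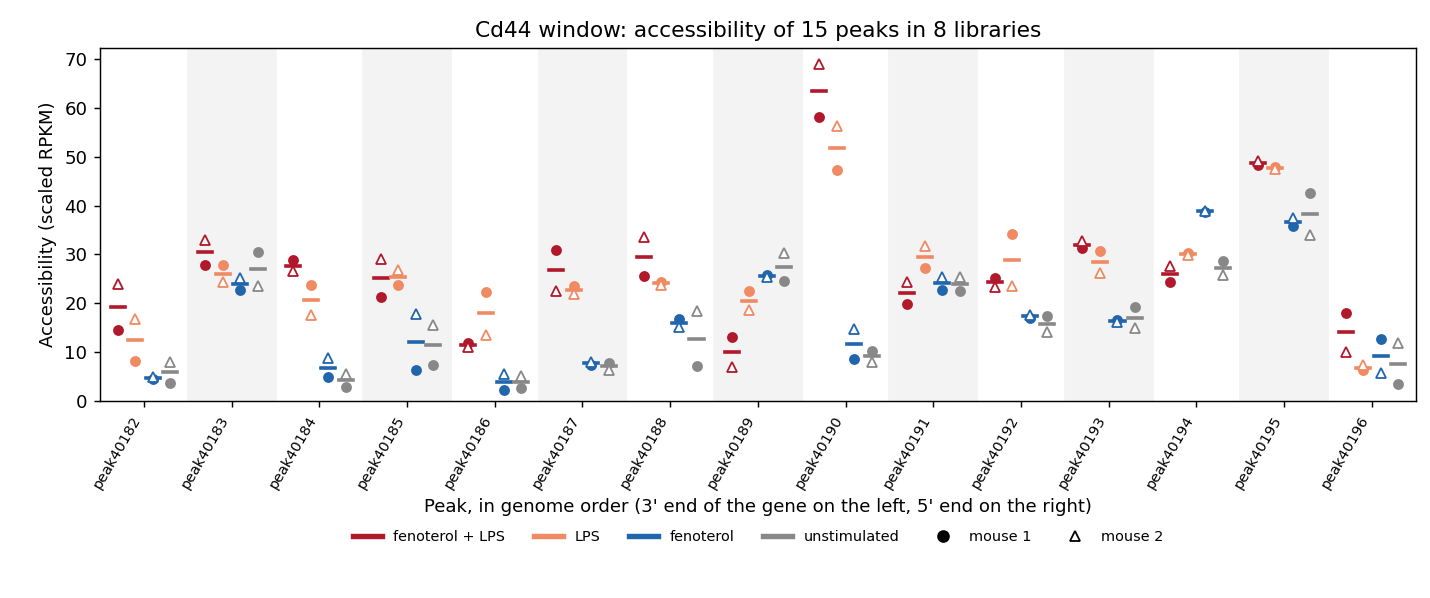
Accessibility (scaled RPKM, vertical axis) of the 15 Cd44 peaks in genome order (horizontal axis), with 1 point per library and short lines at the mean of 2 mice. The libraries with LPS stand far above the others at peak40190, modestly above at peak40195, and below them at peak40189.

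At Sdc4 the strongest gains were at 4 peaks towards the 3′ end of the window and at 1 on the 5′ side. At peak42506 (164257333 to 164257598, within the gene) the fenoterol + LPS libraries had 49.6 and 48.4 RPKM, the LPS libraries 55.5 and 44.0, the fenoterol libraries 3.55 and 9.69, and the unstimulated libraries 16.9 and 5.44. Its log2 change with fenoterol present was 2.38 (SE 0.29, 5.21-fold, adjusted p = 1.72e-05), and 1.93 (SE 0.29) without fenoterol. Libraries with LPS were far above those without. The fenoterol library of mouse 1 held only 3 reads at this peak (95% Poisson interval 0.619 to 8.77, counting error only). At its neighbour peak42507, 583 bp away, the levels were 38.7 ± 12.8 RPKM in fenoterol + LPS, 36.1 ± 2.93 in LPS, 6.08 ± 3.60 in fenoterol and 6.28 ± 1.63 in unstimulated cells (log2 change with fenoterol present 2.10, SE 0.28, adjusted p = 3.76e-05). Both regions had the same order of LPS states in every library.

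Beyond the 3′ end of Sdc4, a pair of peaks 36 bp apart behaved alike. The broader, peak42505 at 164247825 to 164249220, is the widest of the window at 1395 bp. It had 36.4 and 39.2 RPKM in fenoterol + LPS, 35.3 and 37.9 in LPS, 4.50 and 8.65 in fenoterol, and 9.63 and 6.89 in unstimulated libraries. The gap between libraries with and without LPS was far larger than any difference between mice. It rose with fenoterol present by 2.01 on the log2 scale (SE 0.24, 4.03-fold, adjusted p = 1.10e-05). The narrower peak42504 rose by 2.04 (SE 0.38, adjusted p = 9.63e-04), with 34.3 ± 8.72 RPKM in fenoterol + LPS and 5.71 ± 4.29 in fenoterol cells. Calls at these 4 peaks were kept under all 27 alternatives tried.

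On the 5′ side, peak42514 (164282281 to 164282671) had 46.0 and 40.0 RPKM in fenoterol + LPS, 38.4 and 43.8 in LPS, 8.04 and 11.9 in fenoterol, and 19.1 and 11.1 in unstimulated libraries. The lowest library with LPS, at 38.4 RPKM, stood against 19.1 RPKM in the highest without. It rose by 1.76 on the log2 scale with fenoterol present (SE 0.21, 3.40-fold, adjusted p = 1.20e-05). Its neighbour peak42513 rose by 0.83 (adjusted p = 0.00141), with 51.3 ± 0.444 RPKM in fenoterol + LPS and 27.2 ± 3.01 in fenoterol cells, and both calls were kept under all 27 alternatives. Between these and the 5′ end, peak42512 was left out of the test for its low mean. It had 15.1 ± 0.0785 RPKM in fenoterol + LPS, 16.1 ± 0.0120 in LPS, 1.73 ± 1.30 in fenoterol and 4.44 ± 1.90 in unstimulated cells, so it was nearly closed without LPS. The libraries with LPS held only 21 to 23 reads at peak42512, so their small SDs are no measure of precision. The fenoterol value of mouse 1 is the 1-read minimum. In a fit with no filter its log2 change with fenoterol present was 1.75 (adjusted p = 0.00225).

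Around the 5′ end of Sdc4, known here only as near 164270000, peak42510 and peak42511 were open in all groups, and which of them covers the start site was not determined. Peak42510 (164268186 to 164268956) had 61.4 and 53.9 RPKM in fenoterol + LPS, 66.1 and 64.4 in LPS, 37.1 and 33.0 in fenoterol, and 49.4 and 33.7 in unstimulated libraries. The libraries with LPS were all above those without, and the LPS libraries were the highest. It rose by 0.66 on the log2 scale with fenoterol present (SE 0.16, adjusted p = 0.00655), a call lost when fenoterol + LPS of mouse 1 (0.1002) was left out or without the fenoterol library of mouse 2 (0.0724). Peak42511 (164269982 to 164270295) had 40.4 and 55.2 RPKM in fenoterol + LPS, 35.3 and 37.2 in LPS, 32.1 and 25.4 in fenoterol, and 33.4 and 27.6 in unstimulated libraries. Both fenoterol + LPS libraries were above the other 6, and both LPS libraries were narrowly above the 4 without LPS. It rose with fenoterol present by 0.65 (SE 0.16, adjusted p = 0.00988; 0.218 with fenoterol + LPS of mouse 2 left out and 0.122 without the fenoterol library of mouse 2).

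Nearer the middle of Sdc4, peak42508 also rose, by 0.70 on the log2 scale (adjusted p = 0.0150), with 52.4 ± 11.7 RPKM in fenoterol + LPS and 30.9 ± 8.62 in fenoterol cells. The call was lost when fenoterol + LPS of mouse 1 (0.242) was left out, or without the fenoterol library of mouse 1 (0.284). With no mean trend in the fit, the calls at peak42508 (0.126), peak42510 (0.0780) and peak42511 (0.0824) were all lost, which left 6 risen Sdc4 peaks. Between it and the 5′ end lies the 1 peak of the window that fell, peak42509 (164266605 to 164267102). It had 26.9 and 30.3 RPKM in fenoterol + LPS, 42.7 and 28.3 in LPS, 58.1 and 52.7 in fenoterol, and 81.1 and 73.5 in unstimulated libraries. It was the most accessible Sdc4 peak in unstimulated cells and one of the lower ones in cells with LPS, and the fenoterol libraries lay between. It fell by 0.87 on the log2 scale with fenoterol present (SE 0.16, 1.82-fold lower, adjusted p = 8.52e-04) under all 27 alternatives. LPS without fenoterol gave a log2 change of -1.06 (SE 0.16).

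At the far 5′ end of the window lies peak42516, where libraries with and without LPS overlapped. Peak42516 (164286206 to 164287101) had 46.3 and 47.7 RPKM in fenoterol + LPS, 48.0 and 45.7 in LPS, 48.7 and 48.8 in fenoterol, and 61.7 and 43.8 in unstimulated libraries. The group means lay within the range of the unstimulated libraries, and the log2 change with fenoterol present was -0.05 (95% interval -0.36 to 0.26, adjusted p = 0.884). Peak42515 had 37.3 ± 6.07 RPKM in fenoterol + LPS and 24.4 ± 1.18 in fenoterol cells (log2 change 0.53, adjusted p = 0.0649). It passed in 13 of 27 alternatives, with the mouse as a block (0.0397) and by voom (0.0480) among them.

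**Figure D3:**
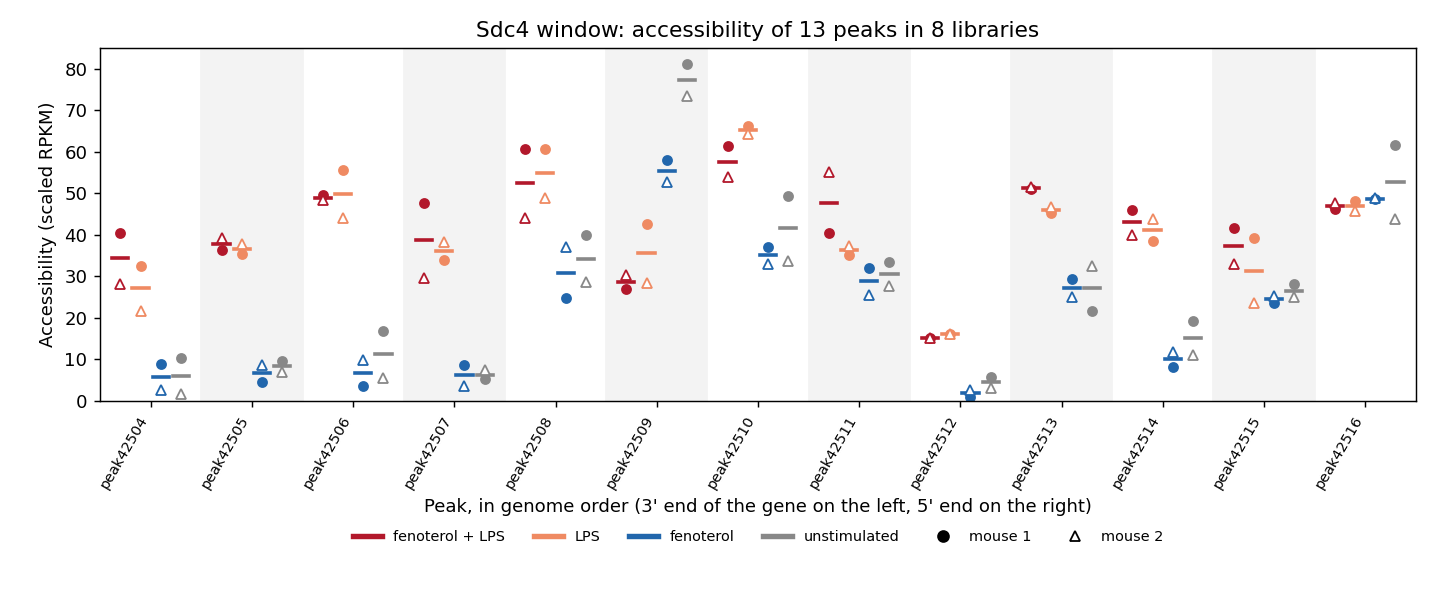
Accessibility (scaled RPKM, vertical axis) of the 13 Sdc4 peaks in genome order (horizontal axis), with 1 point per library and short lines at the mean of 2 mice. The peaks from peak42504 to peak42507 and peak42514 are low without LPS and high with it, peak42509 has the opposite order, and peak42516 is near 47 to 53 RPKM in every group.

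The change with LPS had the same direction with fenoterol and without it at 22 of the 25 tested peaks (88%), against 71.2% of all tested peaks. Across the 25 tested peaks the log2 changes of fenoterol + LPS against fenoterol and of LPS against unstimulated cells had a Pearson correlation of 0.942, against 0.680 over all tested peaks. The peaks are neighbours measured in the same libraries, and the loci are taken to be chosen by the change of LPS against unstimulated cells. The share and the correlation are therefore a description, and nothing is read from their being above those of all tested peaks. The 22 were all 12 tested Sdc4 peaks and 10 of the 13 at Cd44. The 3 exceptions were peak40183, peak40191 and peak40194, with log2 changes of 0.30, -0.11 and -0.52 with fenoterol and of -0.04, 0.26 and 0.13 without. The difference between the responses, tested as an interaction by limma-trend, passed at none of the 25 peaks (0), and peak40189 and peak40194 of Cd44 (2 of 25) had an unadjusted p under 0.05, both negative, against 2.67% of all tested peaks in that direction and 3.65% in the other. Over all 66786 peaks the interaction passed at 0%. At Sdc4 it was positive at every tested peak by limma-trend, with a median of 0.24 on the log2 scale against 0.02 over all tested peaks. By voom it was negative at peak42508 (-0.06) and peak42510 (-0.05) and positive at the other tested Sdc4 peaks. The share of all tested peaks with a positive interaction was not counted. The Sdc4 peaks are neighbours that share their libraries, so the offset is a description. By voom the interaction passed at 0 of the 25 peaks, against 0.0015% of all peaks in the positive and 0.00449% in the negative direction.

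**Figure D4:**
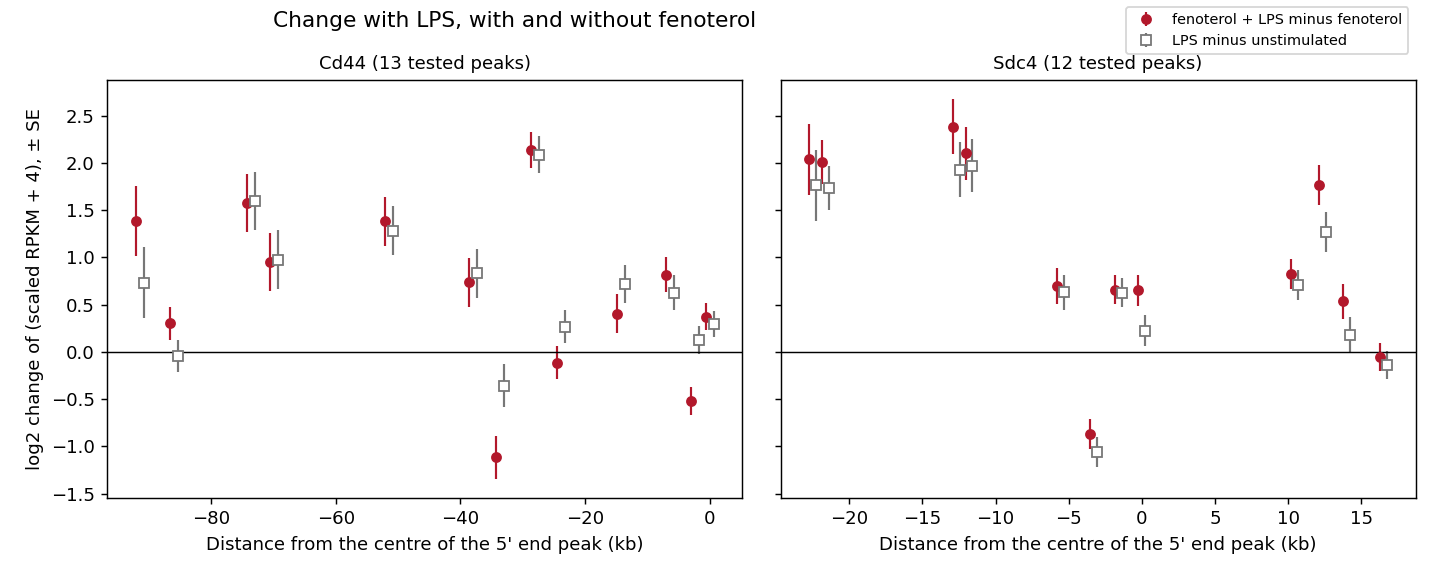
Log2 change with LPS (scaled RPKM + 4, vertical axis, ± SE) against distance in kb from the centre of the peak at the 5′ end (horizontal axis, negative towards the 3′ end), with fenoterol (filled) and without (open). For Sdc4 that peak was taken to be peak42511. At Sdc4 the symbols range from -1.06 to 2.38, with the filled symbol above the open one at every tested peak in this limma-trend fit. At Cd44 they part most at peak40189, peak40182 and peak40194.

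Fenoterol before LPS moved none of the 25 tested peaks past the threshold, relative to LPS alone (limma-trend, 0 of 13 at Cd44 and 0 of 12 at Sdc4; 0% of all tested peaks in either direction). At an unadjusted p under 0.05 there were 2 lower Cd44 peaks and 1 higher Sdc4 peak, against 4.26% of all tested peaks higher and 2.40% lower. Voom called 0 of the 25 as well, against 0.551% of all peaks higher and 0.0509% lower. Both fenoterol + LPS libraries were above both LPS libraries at 6 tested Cd44 and 2 tested Sdc4 peaks (20.7% of all tested peaks). They were below them at 3 and 1 tested peaks (20.9%). The largest difference was at peak40189, with 10.01 ± 4.44 RPKM in fenoterol + LPS and 20.5 ± 2.77 in LPS cells (SD, n = 2), a log2 difference of -0.84 (95% interval -1.31 to -0.37, adjusted p = 0.435; 0.122 by voom). It was lower in both mice. The other Cd44 peak under 0.05 was peak40191, with 22.0 ± 3.22 RPKM in fenoterol + LPS and 29.5 ± 3.21 in LPS cells (log2 difference -0.37, adjusted p = 0.746). The Sdc4 peak was peak42511, with 47.8 ± 10.5 RPKM in fenoterol + LPS and 36.2 ± 1.39 in LPS cells (log2 difference 0.35, 95% interval 0.01 to 0.69, adjusted p = 0.742). At the peak with the strongest gain in Cd44, peak40190, both fenoterol + LPS libraries were above both LPS libraries, with a log2 difference of 0.27 (95% interval -0.13 to 0.68, adjusted p = 0.902).

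Fenoterol alone for 15 min likewise moved none of the 25 past the threshold against unstimulated cells (limma-trend, 0 of 13 and 0 of 12). Over all tested peaks 0.00599% rose and 0.0015% fell. At an unadjusted p under 0.05 there were 1 higher Cd44 peak and 1 lower Sdc4 peak, against 3.89% of all tested peaks higher and 3.54% lower. Voom called 0 of the 25, against 0.0434% of all peaks higher and 0.00299% lower. The first was peak40194, near the 5′ end of Cd44, with 38.8 ± 0.0173 RPKM in fenoterol and 27.2 ± 2.09 in unstimulated cells (log2 difference 0.46, 95% interval 0.14 to 0.77, adjusted p = 0.519). Its fenoterol libraries held 45 and 55 reads, so the small SD there is no measure of precision. The second was peak42509 of Sdc4, with 55.4 ± 3.79 RPKM in fenoterol and 77.3 ± 5.38 in unstimulated cells (log2 difference -0.45, 95% interval -0.78 to -0.12, adjusted p = 0.560). Both differences had the same direction in the 2 mice. When unstimulated mouse 2 was left out, so that its group kept the shallowest library alone, 1 Cd44 peak was called higher in fenoterol cells, peak40188 (log2 difference 0.84, adjusted p = 0.0415). In the same fit 2 Sdc4 peaks were called lower, peak42506 (-1.04, adjusted p = 0.0234) and peak42514 (-0.74, adjusted p = 0.0407). Over all tested peaks that fit called 1728 higher (2.59%) and 1826 lower (2.73%), against 4 and 1 with all libraries. The spread of the lone library is assumed there to be that of the other groups.

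**Figure D5:**
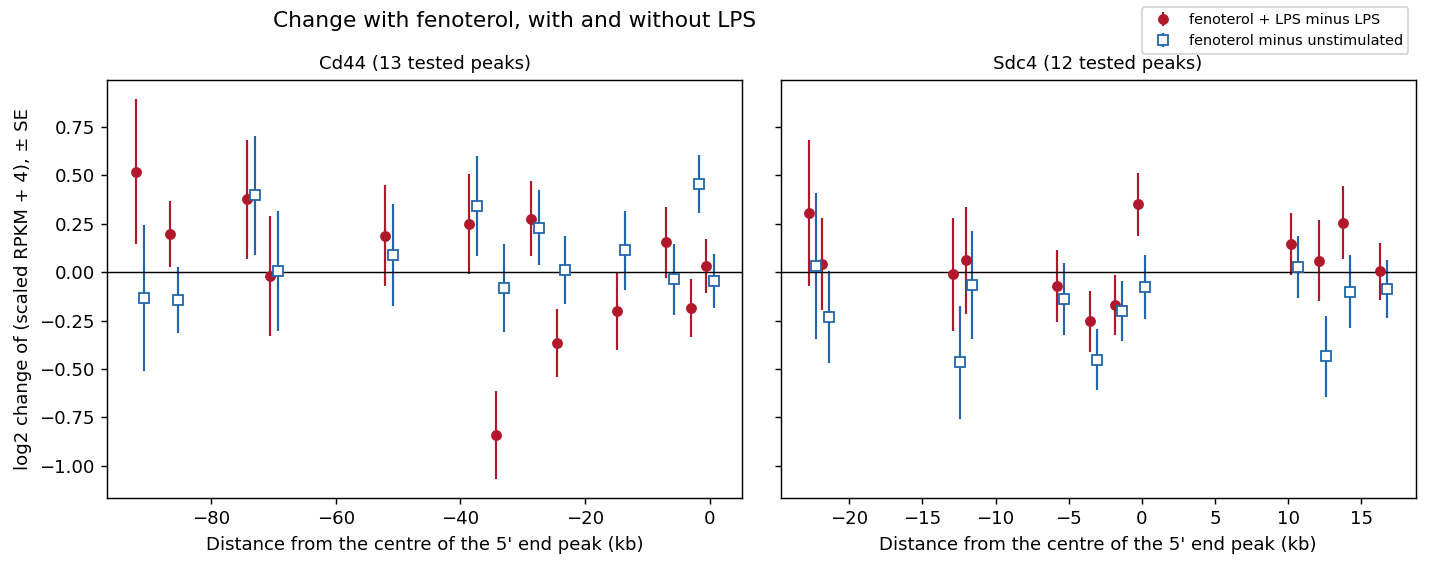
Log2 change with fenoterol (scaled RPKM + 4, vertical axis, ± SE) against distance in kb from the centre of the peak at the 5′ end (horizontal axis), with LPS (filled) and without (open). For Sdc4 that peak was taken to be peak42511. Most symbols lie within 0.5 of 0, and the filled symbol of peak40189 in Cd44 is the lowest at -0.84.

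Members of 1 locus did not all follow a single profile. Over the 8 libraries, log2 levels of the 12 tested Sdc4 peaks correlated pairwise with a median r of 0.72 and those of the 13 Cd44 peaks with a median r of 0.46. Of 66 Sdc4 pairs 47 were positive and of 78 Cd44 pairs 57 were, and the lowest values were -0.89 and -0.84. Pairs of tested peaks in general were not compared. Since the loci are taken to be chosen by the change with LPS, nothing is read from how high these correlations are. Outside both windows, the peaks most like the 5′ peak of Cd44 over the 8 libraries, of all tested, were on chromosome 3 at 83666631 to 83667518 (r = 0.998), on chromosome 1 at 109407644 to 109408106 (r = 0.993) and on chromosome 8 at 14716398 to 14716776 (r = 0.993). The chromosome 3 peak had 81.8 RPKM in fenoterol + LPS, 78.5 in LPS, 54.4 in fenoterol and 57.6 in unstimulated cells on average. The peaks most like peak42511 of Sdc4 were on chromosome 6 at 121084992 to 121085285 (r = 0.986), on chromosome 2 at 126156384 to 126156792 (r = 0.982) and on chromosome 14 at 46794149 to 46794348 (r = 0.981).

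At the edges of the windows, the first Cd44 peak inside on the 3′ side, peak40182, averaged 19.2 RPKM in fenoterol + LPS, 12.4 in LPS, 4.69 in fenoterol and 5.78 in unstimulated cells. The nearest peak outside averaged 23.8 RPKM in fenoterol + LPS, 11.2 in LPS, 3.81 in fenoterol and 9.20 in unstimulated cells, so the groups with LPS were also the higher ones there. On the 5′ side the last peak inside, peak40196, which was left out of the test, averaged 14.001 RPKM in fenoterol + LPS, 6.79 in LPS, 9.17 in fenoterol and 7.57 in unstimulated cells. The first outside averaged 63.1 RPKM in fenoterol + LPS, 60.8 in LPS, 71.3 in fenoterol and 80.2 in unstimulated cells. Neither shows the order of LPS states seen inside the gene. At Sdc4 the first peak inside on the 3′ side, peak42504, averaged 34.3 RPKM in fenoterol + LPS, 27.1 in LPS, 5.71 in fenoterol and 6.04 in unstimulated cells. The nearest outside, 13867 bp away, averaged 8.36 RPKM in fenoterol + LPS, 9.997 in LPS, 9.84 in fenoterol and 12.3 in unstimulated cells, with no gain in the groups with LPS. On the 5′ side the last inside, peak42516, averaged 47.0 RPKM in fenoterol + LPS, 46.9 in LPS, 48.8 in fenoterol and 52.7 in unstimulated cells. The first outside averaged 17.5 RPKM in fenoterol + LPS, 14.4 in LPS, 8.12 in fenoterol and 17.4 in unstimulated cells.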

How the data were processed

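Per the submitters' processing notes, reads were handled with cutadapt, Bowtie2, MACS2 and HOMER on build mm9; their versions, any duplicate removal, any Tn5 shift and whether libraries were pooled to call peaks were not given in the sources used here. Deposited by the authors was 1 RPKM value per peak and library. Times peak length (end minus start), 100% of values were within 0.01 of whole multiples of 1 step per library, which gave reads.

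RPKM values were divided by median-ratio size factors, 4 was added and log2 taken. Peaks with the lowest 10% of means, up to 9.62 RPKM, were left out. Group means over all 8 libraries were fitted with limma 3.58.1 (R 4.3.3, limma-trend, Benjamini-Hochberg over all tested peaks), and limma voom on recovered reads was an alternative. Prior degrees of freedom were 16.4 (limma-trend) and 142 (voom) against 4 residual. The fit was also run on simulated reads, with set changes in the fenoterol + LPS group alone and no mouse effect. That run is no check of the paired design or of changes in several groups.

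The loci and the tests were chosen with earlier results of these data known. LPS against unstimulated cells is therefore given without p-values. Peaks given in full are, per gene, that at the 5′ end, the 3 highest by mean, the 3 with the smallest p for fenoterol + LPS against fenoterol, and 1 each for fenoterol + LPS against LPS and fenoterol against unstimulated; others are given by group means or counts, except peak40185 and peak40186, whose library values were added after they were seen. Per the labels, a shared mouse number means a shared animal, so the mouse was a block in an alternative; differences between the mice correlated across groups at 0.0223 to 0.0713. Alternatives are named in the closing section. Intervals of reads cover counting error only.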

Additional observations from a re-analysis of the deposited data

Results flagged for a closer look

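At 3 peaks an effect had opposite signs in 2 states, in both mice each time. The interaction that tests this difference did not pass at any of them. The share of all tested peaks that meet this rule was not counted, so nothing is read from the number. Without LPS, the fenoterol changes at peak40191 (log2 0.01, SE 0.17) and peak42511 (-0.08, SE 0.16) were smaller than their SE. Peak40191 of Cd44 was higher in LPS than in unstimulated cells of both mice (log2 0.24 and 0.29) and lower in fenoterol + LPS than in fenoterol cells (-0.17 and -0.06); the interaction was -0.376 on the log2 scale (limma-trend adjusted p = 0.881). Fenoterol gave 0.01 and 0.01 without LPS there, and -0.39 and -0.34 with it. Peak40194 of Cd44 was likewise higher with LPS alone (0.07 and 0.18) and lower with LPS after fenoterol (-0.60 and -0.44), and fenoterol gave 0.39 and 0.53 without LPS and -0.28 and -0.10 with it; the interaction was -0.644 (adjusted p = 0.665). Peak42511 of Sdc4 had fenoterol differences of -0.05 and -0.10 without LPS and of 0.18 and 0.52 with it; the interaction was 0.427 (adjusted p = 0.834).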

How the results depend on the processing

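No call at the 25 tested peaks reversed under the 27 alternatives tried. The count of fallen Cd44 peaks, fenoterol + LPS against fenoterol, was 1 with no mean trend and 0 to 2 when single libraries were left out, by limma-trend and by voom. Risen Cd44 peaks then numbered 3 to 8 and risen Sdc4 peaks 7 to 10 (6 with no mean trend), and without fenoterol + LPS replicate 2 the Cd44 count was 3. With the mouse as a block 7 Cd44 and 10 Sdc4 peaks rose and 2 and 1 fell, against 9.92% risen and 4.87% fallen over all tested peaks, so the block added 1 risen peak at each locus and changed no other call. For fenoterol against unstimulated cells, leaving out single libraries gave 0 to 1 higher Cd44 peaks and 0 to 2 lower Sdc4 peaks. The mean Sdc4 sum in fenoterol cells, 159 RPM, was 162 in the values as deposited and 162 as a share of recovered reads. The causes were not tested. Over all peaks, 6300 rose and 2882 fell for fenoterol + LPS against fenoterol, against 6657 and 4982 with quantile normalization, 8055 and 4752 by voom, 5041 and 1594 with no mean trend, 7968 and 4349 with the 4 libraries compared, 3010 and 1183 with fenoterol + LPS of mouse 1 left out, 3071 and 1002 with that of mouse 2 left out, and 3043 and 681 with fenoterol of mouse 1 left out. For fenoterol + LPS against LPS the 0 calls became 368 higher and 34 lower by voom, and 228 and 28 with the 4 libraries compared. For fenoterol against unstimulated cells 4 and 1 became 1728 and 1826 with unstimulated mouse 2 left out. The other alternatives were values as deposited, pseudocounts of 0.8 and 20, a test of every peak, a filter of 25% (which removed peak40182), the block, voom with the block, and each library left out. Voom without each library and the sums without each library were added after the data were seen. Depth limits the low peaks most: 4 Cd44 peaks had 1 read in the unstimulated library of mouse 1.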
